A study of Mus musculus with 96 samples.

Results

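Male mouse prefrontal cortex was compared between offspring exposed to maternal immune activation (MIA) and offspring of the saline arm, with both groups given the CSF1R inhibitor PLX5622 (PLX). Each group holds 6 libraries, so 12 of the 96 libraries of the series enter the comparison directly. The genes are the 18624 of 22709 in the table that reach a normalised read count of at least 10 in at least 5 of these 12 libraries. The whole series crosses MIA or saline with PLX or control in both sexes and in 2 tissues, prefrontal cortex and hippocampus. Both groups described here are male and both were given the inhibitor, so the comparison asks how MIA and saline males differ once PLX has been given. The wording under PLX means only that it was given. Whether it was still present when tissue was taken is not known from the labels. The design text says that the inhibitor was injected to target microglia and let them renew. The labels used here give no strain, age, agent of immune activation, inhibitor dose, timing or litter. Immune activation acts on the mother, so litter mates share 1 exposure. Every p-value below takes the libraries as independent, may therefore be too small, and cannot part MIA from differences between litters.

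MIA is a model in which the immune system of a pregnant female is stimulated and the brain and behaviour of the offspring are studied later. Microglia are the resident macrophages of the brain. They depend for survival on the receptor CSF1R and its ligands CSF1 and IL-34, and inhibitors that enter the brain deplete them until dosing stops. The prefrontal cortex holds glutamatergic projection neurons, inhibitory interneurons and glia, and RNA of bulk tissue mixes them all.

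Recovered reads per library ran from 22752437 to 25158255. The tissue label was checked against defining markers, which were present in all 12 libraries. Slc17a7, the vesicular glutamate transporter of cortical projection neurons, had a signal of 33260 to 40830 in the MIA PLX libraries and 30820 to 35980 in the saline PLX libraries. Signal here means whole reads scaled by a factor for each library, and it is not scaled to gene length. Saline PLX replicate 5 stood apart from the other 11 libraries. Its first principal component score was 51.7, against -21 to 9.46 in the others, on a component holding 24.5% of the variance. Genes for ribosomal proteins and oxidative phosphorylation took 0.741% of its signal, against 0.527% to 0.606% in the MIA PLX libraries and 0.503% to 0.583% in the other 5 saline PLX libraries. Its part in the results was not tested beyond the values given without it. By the same share, libraries that stand apart numbered 0 of 6 in MIA PLX males, 1 of 6 in saline PLX males, 3 of 5 in MIA control males and 5 of 6 in saline control males. Contrasts of PLX with control therefore move with this share, and they are given below also with a term for it, an alternative chosen after seeing the data.

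No gene passed the test in either direction, and most genes were measured closely enough to bound the difference. By limma with Benjamini-Hochberg adjustment over 18624 genes, 0 genes were called higher and 0 lower in MIA PLX males at an adjusted p under 0.05, which is 0% of those tested, and the lowest adjusted p was 0.9998. At an unadjusted p under 0.05 stood 514 genes, 2.76% of those tested, while the threshold alone admits a fraction of about 0.05. Of these, 269 had higher and 245 had lower estimates in MIA PLX males. Count tests on the recovered whole reads gave the same number of calls, with 0 called and 515 at an unadjusted p under 0.05 by edgeR's quasi-likelihood test, and 0 called and 524 by DESeq2. Both count tests also estimated the spread over all 48 prefrontal libraries. The count at an unadjusted p under 0.05 was 331 without MIA PLX replicate 3 and 420 without saline PLX replicate 5. It was 1291 with array weights and 1134 with a term for libraries that stand apart, both above that fraction. A share below it therefore depends on the fit.

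The size of difference that the fit allows can be read from the intervals. The spread behind them was pooled over all 48 prefrontal libraries, among them the control groups with many libraries that stand apart. A fit of the 12 libraries alone had 870 genes at an unadjusted p under 0.05, and its intervals are not given here. The median standard error of a log2 fold change (MIA PLX minus saline PLX, on log2 of signal plus 1) was 0.118, and the median absolute log2 fold change was 0.0719. The 95% interval lay within 1.5-fold in both directions for 14949 genes (80.3%) and within 2-fold for 17831 genes (95.7%). It lay within 1.2-fold for only 7044 genes (37.8%), so differences of that size could not be bounded for most genes. Estimates ran from -2.31 to 1.2 in log2, and 13 genes had one beyond 2-fold. Precision followed the level of a gene, with a median standard error of 0.286 for the 2040 genes with a mean signal under 20 and 0.0788 for the 5474 genes at 1000 and over.

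**Figure D1:**
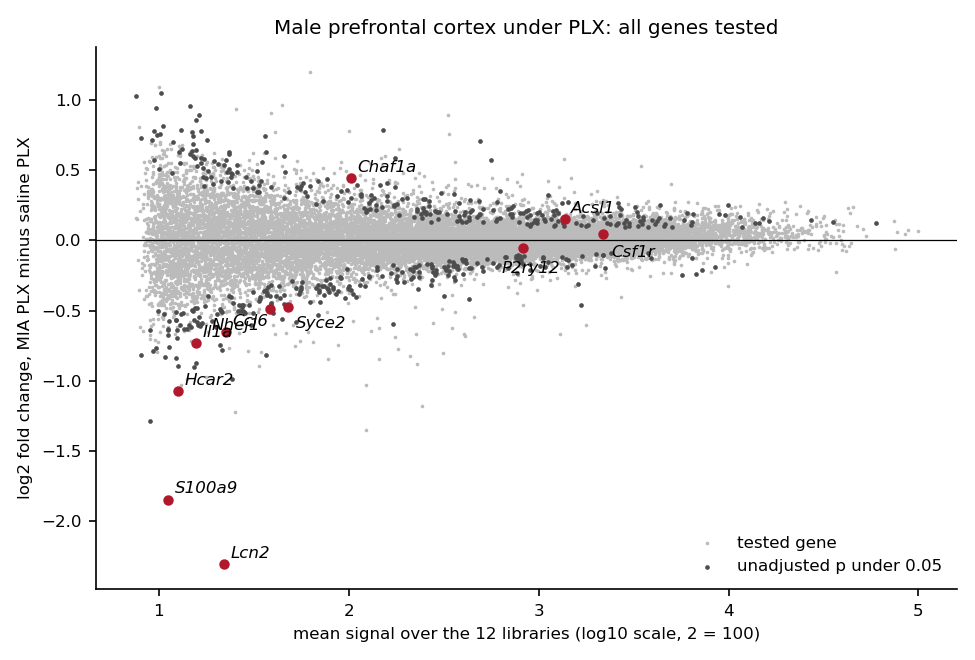
Log2 fold change (MIA PLX minus saline PLX, y axis) against mean signal over the 12 libraries (x axis, log10) for the 18624 genes tested in male prefrontal cortex. Dark points are the 514 genes at an unadjusted p under 0.05, red points are named genes, and the widest estimates belong to genes of low signal such as Lcn2 at -2.31.

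In 25 genes every MIA PLX library lay above every saline PLX library (0.134% of genes tested), and in 14 genes every one lay below (0.0752%). With 6 libraries per group some genes separate by chance alone. That share was not computed, so lack of overlap, here and below, describes the values and is no sign of a difference. Of these 39 genes, 4 were predicted genes with no name beyond a clone number. The gene with the smallest p was Chaf1a, a subunit of the chromatin assembly factor that places histones on newly made DNA. Its signal was 119.1, 99.93, 126.5, 116.9, 106.9 and 138.0 in MIA PLX replicates 1 to 6, against 99.91, 81.29, 96.7, 94.24, 75.21 and 72.02 in saline PLX replicates 1 to 6. The groups did not overlap, though the lowest MIA PLX and the highest saline PLX libraries were almost level. The log2 fold change was 0.44 ± 0.11 (SE, n = 6 each), with a 95% interval of 0.22 to 0.67 and an adjusted p of 0.9998 by limma, so Chaf1a did not pass.

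Chaf1a had its lowest group mean of the 4 male prefrontal groups in saline PLX males. Means were 117.9 ± 13.6 in MIA PLX males (SD, n = 6), 86.56 ± 11.9 in saline PLX males (SD, n = 6), 114.2 ± 16.11 in MIA control males (SD, n = 5) and 137.4 ± 25.52 in saline control males (SD, n = 6). Within saline males the estimate was lower with PLX than with control, with a log2 fold change of -0.65 ± 0.11 (SE) and an adjusted p of 0.004869 by limma. With the term for libraries that stand apart it was -0.65 ± 0.12 (SE, adjusted p = 0.0125 by limma). Within MIA males the same contrast was 0.05 ± 0.12 and did not pass (adjusted p = 0.8167 by limma). Both contrasts with PLX share libraries with the MIA comparison. Chaf1a was chosen by its small p there, where its values in the saline PLX libraries were low. Its contrast in saline males uses those same values, so that adjusted p may be too small and is not a separate finding.

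Other genes with small p and higher estimates had varied roles. Acsl1, which activates long-chain fatty acids by joining them to coenzyme A, had a lowest, median and highest signal of 1404, 1430 and 1519 in MIA PLX libraries, against 1138, 1350 and 1372 in saline PLX libraries. Pdss2, part of the enzyme that makes the side chain of coenzyme Q, had 273.4, 282.7 and 311.5 in MIA PLX libraries, against 240, 249.1 and 269.3 in saline PLX libraries. Neither gene overlapped between groups, and the differences were small, at 0.15 ± 0.05 for Acsl1 and 0.19 ± 0.06 for Pdss2 in log2 (SE). Gamt, which catalyses the last step of creatine synthesis, overlapped, with 143.3, 161.4 and 191.3 in MIA PLX libraries and 111.5, 121.2 and 146.6 in saline PLX libraries. For Gamt the difference was 0.40 ± 0.13 (SE).

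The riboflavin transporter Slc52a2 had a log2 fold change of 0.21, Lrrc8d, a subunit of volume-regulated anion channels, 0.16, and Sprn, which encodes the prion-like protein Shadoo, 0.16. For the histone lysine demethylase Kdm4d the estimate was 0.56, and for the zinc finger gene Zscan25 it was 0.21. CK137956, a transcript without a known role, did not overlap, with 46.54, 55.46 and 60.63 in MIA PLX libraries and 30.4, 38.83 and 46.27 in saline PLX libraries. Rps2-ps13 (0.94) is a pseudogene and could share reads with its near-identical parent Rps2, and Nkx2-2os (0.72) is an antisense gene whose reads cannot be parted from Nkx2-2 if counting ignored strand. Both are uncertain for that reason. Among the 24 genes named by the smallest p, 12 in each direction, 4 higher and 1 lower did not overlap between groups. Over all genes tested the shares without overlap were 0.134% higher and 0.0752% lower. The 24 were chosen by p on these same values, so lack of overlap is no separate support for them.

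Among genes with lower estimates, Nhej1, a DNA double-strand break repair factor that works with the end-joining ligase, led. Its signal was 24.98, 31.82 and 41.37 in MIA PLX libraries (lowest, median, highest), against 36.81, 45.19 and 52.29 in saline PLX libraries. The groups overlapped, and the log2 fold change was -0.49 ± 0.14 (SE, adjusted p = 0.9998 by limma). Syce2, a component of the meiotic synaptonemal complex, had 29.27, 43.23 and 47.42 in MIA PLX libraries and 51.3, 55.22 and 60.75 in saline PLX libraries, with no overlap. Its log2 fold change was -0.47 ± 0.15 (SE).

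Rab8b, a small GTPase of vesicle traffic, had a log2 fold change of -0.19, and Casp6, an effector caspase, had -0.32. The cullin ligase adaptor Kbtbd6 stood at -0.52, the zinc finger gene Zfp983 at -0.28, Tuft1, named for the enamel protein tuftelin, at -0.43 and Fam217a at -0.87. The pseudogene Ccnb2-ps stood at -0.35 and is uncertain, since its reads may come from Ccnb2. The 24 genes were also set beside the other MIA comparisons, which use other libraries, though the hippocampal ones may come from the same animals. Signs that agreed at random would number about 12. Their estimates had the same sign in 10 of 24 for males without inhibitor, 16 of 24 for females under PLX and 15 of 24 for male hippocampus under PLX.

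**Figure D2:**
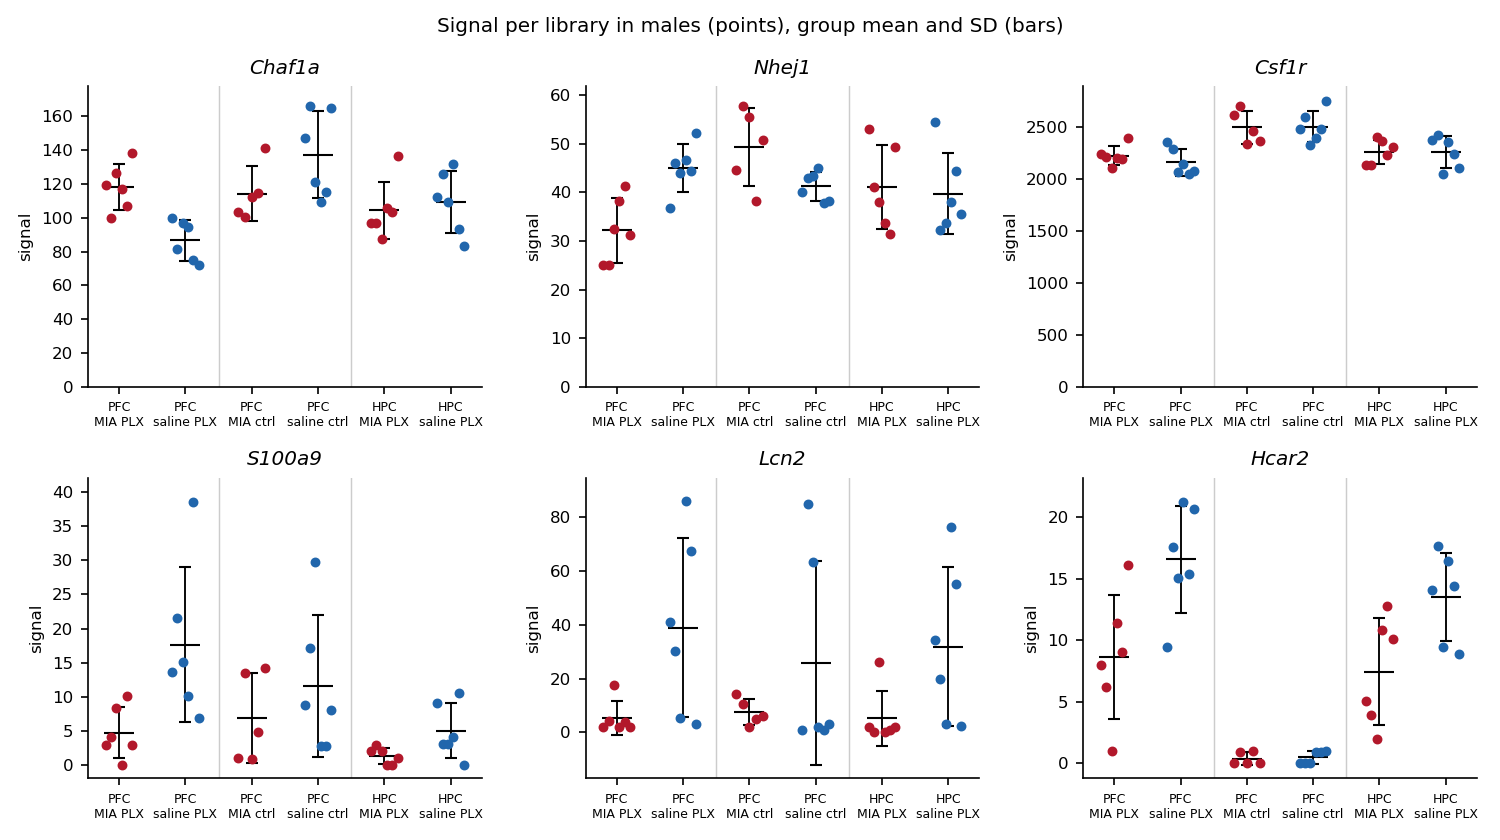
Signal of 6 genes in each male library (points; red MIA, blue saline), with group mean and SD (bars), in prefrontal cortex (PFC) with PLX, prefrontal cortex with control (ctrl) and hippocampus (HPC) with PLX. Chaf1a lies at 99.93 to 138.0 in MIA PLX prefrontal libraries and 72.02 to 99.91 in saline PLX ones, while Csf1r overlaps between them.

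The receptor that PLX targets and its ligands overlapped between MIA PLX and saline PLX males. Csf1r had 2100, 2208 and 2392 in MIA PLX libraries (lowest, median, highest), against 2041, 2107 and 2350 in saline PLX libraries. For Csf1r the estimate in log2 was 0.04 ± 0.06 (SE), with a 95% interval of -0.09 to 0.17, so a difference beyond 1.2-fold in either direction lay outside the interval. Csf1 was at 0.03 ± 0.06 and Il34 at 0.02 ± 0.08. Of the 9 tested genes of the colony-stimulating factor axis, 0 passed and 5 had estimates above 0, from Tyrobp at -0.12 to Csf2ra at 0.26. Fewer cells of a type and less RNA per cell cannot be told apart in bulk tissue, here and in what follows.

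Genes that mark microglia at rest gave the same picture. The purinergic receptor gene P2ry12 had 645, 807.4 and 944.1 in MIA PLX libraries, against 730.9, 847 and 895.2 in saline PLX libraries. The fractalkine receptor gene Cx3cr1 had 954.5, 1109 and 1255 in MIA PLX libraries, against 969.8, 1068 and 1220 in saline PLX libraries. In both genes the groups overlapped almost fully. Log2 fold changes were -0.06 ± 0.10 for P2ry12, 0.03 ± 0.09 for Cx3cr1, -0.13 ± 0.11 for Tmem119 and 0.07 ± 0.10 for Fcrls (SE). The sign for P2ry12 turned without MIA PLX replicate 3 (0.00571), and that for Cx3cr1 without MIA PLX replicate 6 (-0.00649), without saline PLX replicate 6 (-0.00399) and with array weights (-0.00824).

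Over the whole list of resting microglia, 0 of 35 tested genes passed and 13 had estimates above 0. The median log2 fold change was -0.0452, beside 0.00642 over all genes tested, and for 33 of the 35 the 95% interval lay within 1.5-fold. Their summed signal was 0.1132% to 0.122% of a library in MIA PLX males and 0.1175% to 0.1329% in saline PLX males. The only member of this list at an unadjusted p under 0.05 was Spi1, which encodes the myeloid transcription factor PU.1, at 0.34 ± 0.17 (SE).

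The microglial level was also set against the groups without inhibitor. Fcrls, a microglial Fc receptor-like gene in mouse, averaged 395.9 ± 17.74 in MIA PLX males, 377 ± 23.87 in saline PLX males, 588.1 ± 69.94 in MIA control males and 552.8 ± 53.68 in saline control males (SD, n = 6, 6, 5 and 6). The PLX contrast for Fcrls was -0.56 ± 0.10 in MIA males (adjusted p = 0.01331 by limma) and -0.55 ± 0.10 in saline males (adjusted p = 0.004964 by limma), and both passed. With the term for libraries that stand apart neither passed, at -0.45 ± 0.10 in MIA males (adjusted p = 0.132 by limma) and -0.42 ± 0.09 in saline males (adjusted p = 0.081 by limma). For Csf1r it was -0.17 ± 0.07 in MIA males and -0.21 ± 0.06 in saline males, and neither passed. Csf1r averaged 2495 ± 157.5 in MIA control males (SD, n = 5) and 2501 ± 149.4 in saline control males (SD, n = 6).

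**Figure D3:**
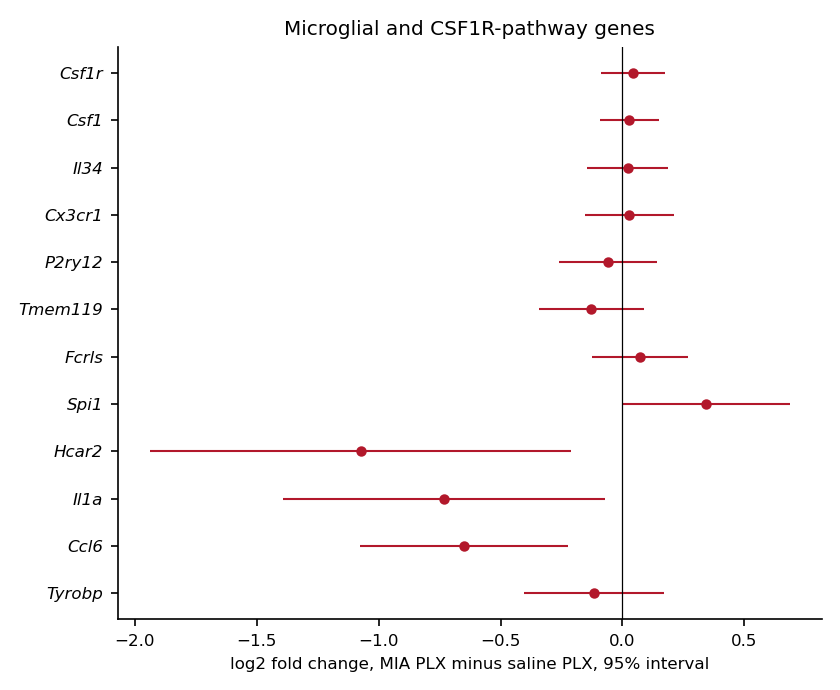
Log2 fold change (MIA PLX minus saline PLX, x axis) with its 95% interval for microglial and CSF1R-pathway genes (y axis). Csf1r, Csf1, Il34, Cx3cr1, P2ry12, Tmem119, Fcrls and Tyrobp span 0, while Hcar2, Il1a and Ccl6 lie below 0 and Spi1 above 0 before adjustment.

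Other immune lists also had no member that passed. The counts were 0 of 27 for activated microglia (median -0.0187), 0 of 16 for complement (-0.0419), 0 of 28 for interferon-stimulated genes (0.00755), 0 of 19 for MHC class I and II (-0.00422) and 0 of 20 for cytokine receptors and signalling (0.0102). The list of border macrophages, which live in the meninges and around vessels, had 0 of 11 (0.0216). That median was 0.137 without saline PLX replicate 5 and turned to -0.000109 without saline PLX replicate 1 and -0.0434 without saline PLX replicate 6.

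A few immune genes of low signal had lower values in MIA PLX males. Other immune genes had higher estimates, such as Lgals3 at 0.477 and Cd163 at 0.343, and did not pass either. Hcar2, a receptor for niacin and the ketone body beta-hydroxybutyrate found on myeloid cells, had 1.045, 8.542 and 16.12 in MIA PLX libraries (lowest, median, highest), against 9.465, 16.53 and 21.28 in saline PLX libraries. The groups overlapped, and the log2 fold change was -1.07 ± 0.43 (SE, adjusted p = 0.9998 by limma). Without inhibitor Hcar2 was near 0, at a mean of 0.3888 in MIA control males and 0.4819 in saline control males. The PLX contrast was 2.63 ± 0.45 in MIA males (adjusted p = 0.01021 by limma) and 3.61 ± 0.43 in saline males (adjusted p = 1.718e-06 by limma), so Hcar2 rose under PLX in both arms. With the term for libraries that stand apart it was 2.66 ± 0.48 in MIA males (adjusted p = 0.0156 by limma) and 3.64 ± 0.47 in saline males (adjusted p = 7.73e-06 by limma).

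The difference between those PLX contrasts is the same quantity as the difference between the MIA contrasts with and without inhibitor. For Hcar2 it was -0.98 ± 0.62 (SE, unadjusted p = 0.1222 by limma) and did not pass. In male hippocampus under PLX Hcar2 had a mean of 7.458 ± 4.351 in MIA libraries and 13.52 ± 3.597 in saline libraries (SD, n = 6 each). The groups overlapped there, and the log2 fold change was -0.93 ± 0.43 (SE). The hippocampal libraries may come from the same animals as the prefrontal ones, which the labels do not say. Il1a, the gene of the inflammatory cytokine interleukin-1 alpha, had 6.003, 13.84 and 16.12 in MIA PLX prefrontal libraries, against 17.36, 18.34 and 26.35 in saline PLX ones, without overlap. Its log2 fold change was -0.73 ± 0.33 (SE).

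The lowest estimates of all genes tested were those of Lcn2 and S100a9, both known from neutrophils. Lcn2 encodes lipocalin, an iron-scavenging protein of neutrophils, reactive astrocytes and endothelium. Its signal was 2.001, 4.164, 17.77, 2.069, 4.036 and 2.015 in MIA PLX replicates 1 to 6, against 41.02, 30.36, 5.372, 86.14, 67.5 and 2.96 in saline PLX replicates 1 to 6. Saline PLX replicates 1, 2, 4 and 5 were high, and replicates 3 and 6 lay within the range of the MIA PLX libraries. The log2 fold change was -2.31 ± 0.79 (SE, adjusted p = 0.9998 by limma).

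In hippocampus Lcn2 stood in much the same order over libraries of the same number. It had 2.042, 0, 26.03, 0, 0.9816 and 2.018 in MIA PLX replicates 1 to 6, against 34.3, 19.72, 3.157, 76.25, 54.96 and 2.227 in saline PLX replicates 1 to 6. The order of the 6 saline PLX libraries was identical in the 2 tissues, and replicate 3 was the highest MIA PLX library in both. The labels do not say whether libraries of the same number come from the same animal, and if they do the hippocampus is not a second sample of the difference. The hippocampal log2 fold change of Lcn2 was -2.73 ± 0.90 (SE, adjusted p = 0.9998 by limma). Saline males without inhibitor ran from 0.9453 to 84.73 in prefrontal cortex, so the spread between saline libraries was as wide without PLX.

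S100a9, a subunit of the neutrophil protein calprotectin, had 0, 3.593 and 10.09 in MIA PLX libraries (lowest, median, highest), against 6.906, 14.36 and 38.57 in saline PLX libraries. The ranges overlapped, and saline PLX replicate 5 was the highest. The log2 fold change was -1.84 ± 0.59 with all libraries (SE) and -1.59 without that library. The folds of these low-signal genes depend on the pseudocount, and with 8 in place of 1 they were -0.955 for S100a9, -0.604 for Hcar2 and -1.5 for Lcn2. Ccl6, a chemokine of mouse myeloid cells, had 9.368, 17.43 and 30.23 in MIA PLX libraries, against 21.49, 28.39 and 31.82 in saline PLX libraries. Its log2 fold change was -0.65 ± 0.21 (SE). In female prefrontal cortex under PLX, Hcar2 ran from 3.042 to 16.74 in MIA libraries and 3.119 to 9.027 in saline libraries. Il1a ran from 5.919 to 24.34 and 6.238 to 16.05 there, and Ccl6 from 25.32 to 32.44 and 18.53 to 29.02. For Lcn2 the female ranges were 1.033 to 15.74 and 0.9362 to 9.002, and for S100a9 1.014 to 8.331 and 0 to 6.018.

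The list of peripheral leukocytes, of which S100a9 and Hcar2 are members, holds 18 symbols. Only 9 were matched and 8 tested, so it covers leukocytes in part. Of the 8 tested genes 0 passed, with 3 estimates above 0 (Cd4, Ly9 and Itgal) and a median of -0.0958. The summed signal was 0.000953% to 0.001663% in MIA PLX libraries and 0.001007% to 0.001415% in saline PLX libraries. The median turned to 0.0105 without MIA PLX replicate 3, 0.0219 without saline PLX replicate 3 and 0.0729 with the stricter filter. Ptprc, the pan-leukocyte gene CD45, which microglia express too, was at -0.12 ± 0.13 (SE). How far blood or leukocytes in the tissue enter these values was not tested.

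Most neuronal lists had medians slightly above the median of all genes, interneurons excepted, again with 0 genes called. Among markers of excitatory cortical layers 23 of 26 estimates were above 0, with a median of 0.101. Slc17a7 had 33260, 38020 and 40830 in MIA PLX libraries (lowest, median, highest), against 30820, 34320 and 35980 in saline PLX libraries. The groups overlapped, and the log2 fold change was 0.13 ± 0.05 (SE, unadjusted p = 0.01146 by limma). The list's summed signal was 0.3196% to 0.3442% in MIA PLX libraries and 0.3017% to 0.3275% in saline PLX libraries.

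Of the ionotropic glutamate receptor subunits 16 of 17 estimates were above 0 (median 0.0818, and 0.0329 without saline PLX replicate 5). The kainate receptor gene Grik4 had the smallest p, at 0.19 ± 0.07 (SE). Genes of synaptic adhesion and scaffolds had 20 of 25 above 0 (median 0.0548), with the synaptic vesicle protein gene Syn1 at 0.16 ± 0.06 and Snap25, the fusion protein of the presynaptic terminal, at -0.06 ± 0.05 (SE). Interneuron markers were divided, with 12 of 24 above 0 and a median of 0.00374, and the GABA-A receptor subunits had 8 of 13 above 0 and 0.0367. The autism-associated chromatin and neuronal genes had 18 of 24 above 0 and a median of 0.067, which was 0.0103 without saline PLX replicate 5. Monoamine and neuropeptide receptors had 21 of 29 above 0 and a median of 0.0661, which turned to -0.0405 without that library and -0.00507 with array weights. Sstr1, a somatostatin receptor gene, was at 0.29 ± 0.11 (SE).

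Genes that neurons induce within minutes of activity had estimates above 0 in 21 of 22 transcription factors, with a median of 0.19, and 0 passed. The spread inside the MIA PLX group was wide. Egr4 had 863.4, 439.3, 1360, 283.4, 352.1 and 514.9 in MIA PLX replicates 1 to 6, against 417.5, 427, 248.2, 320.2, 429.1 and 226.9 in saline PLX replicates 1 to 6. Replicates 1 and 3 of the MIA PLX group were high, and its replicates 4 and 5 lay among the saline PLX libraries. Egr4 had a log2 fold change of 0.71 ± 0.33 (SE).

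Fos, the best-known gene of this class, was at 0.47 ± 0.35, Npas4 at 0.44 ± 0.34, Arc, a synaptic effector, at 0.40 ± 0.29 and Fosb at 0.06 ± 0.24 (SE). The list took 0.1756% of the signal in MIA PLX replicate 3, 0.0853% to 0.135% in the other MIA PLX libraries and 0.0876% to 0.117% in the saline PLX libraries. Without MIA PLX replicate 3 the median was 0.0787. Activity-induced effectors had 18 of 28 above 0 and a median of 0.0825, with Ccn1, a matrix protein gene, at 0.78 ± 0.35 (SE).

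Genes of endoplasmic reticulum stress and folding ran the other way, with 2 of 25 estimates above 0 and a median of -0.154, and 0 passed. Hspa5 encodes the main luminal chaperone, BiP. It had 9164, 13040, 6245, 9872, 10330 and 5145 in MIA PLX replicates 1 to 6, against 9222, 12810, 7760, 9669, 12580 and 13610 in saline PLX replicates 1 to 6. MIA PLX replicates 3 and 6 were the lowest of the 12, and the other libraries overlapped. The log2 fold change was -0.33 ± 0.20 (SE), and the median of the list was -0.0965 without MIA PLX replicate 6.

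The hippocampal libraries of the same numbers were also lowest in Hspa5. As for Lcn2, they may come from the same animals, and then the hippocampus is not a second sample. It had 8128, 12040, 5624, 8917, 9813 and 4627 in hippocampal MIA PLX replicates 1 to 6, against 9198, 10740, 6992, 8994, 11880 and 13810 in hippocampal saline PLX replicates 1 to 6. Replicates 3 and 6 were again the lowest of the 12, and saline PLX replicate 6 was again the highest.

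Cytosolic heat shock chaperones had 2 of 19 estimates above 0 and a median of -0.0961, which was -0.057 without saline PLX replicate 5. Cytosolic ribosomal proteins had 8 of 50 above 0 and a median of -0.0809, which was -0.0121 without saline PLX replicate 5. For nuclear genes of oxidative phosphorylation 14 of 53 were above 0, and the median of -0.0484 turned to 0.00959 without that library. Cholesterol genes had 20 of 26 above 0 and a median of 0.0558.

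**Figure D4:**
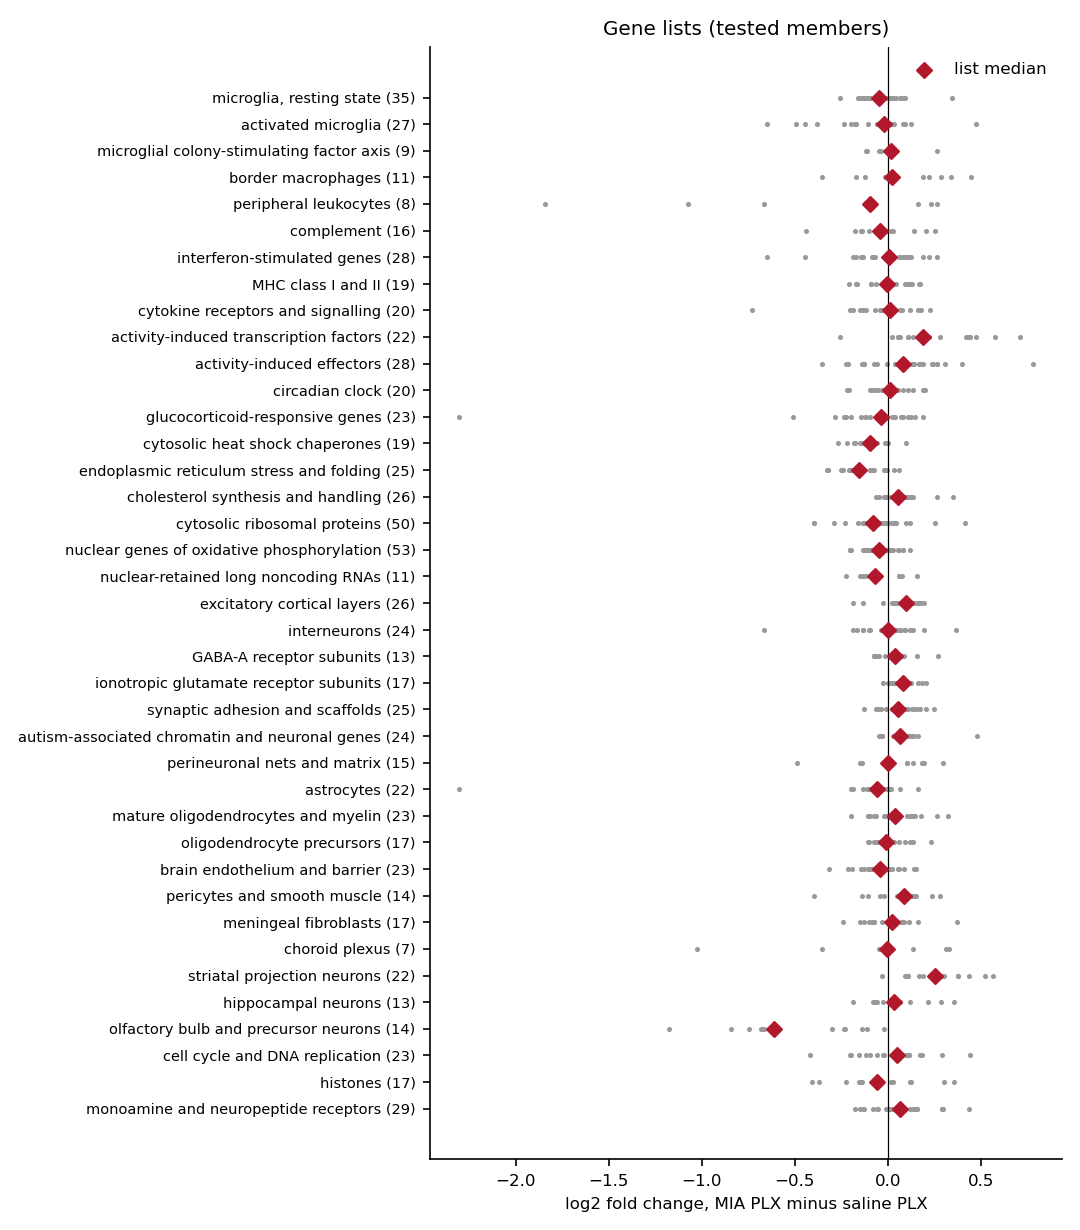
Log2 fold change (MIA PLX minus saline PLX, x axis) of the tested members (grey points) of 39 gene lists (y axis, number tested in brackets), with the list median as a red diamond. The medians of 5 lists lie beyond 0.1 in either direction: olfactory bulb and precursor neurons at -0.613, striatal projection neurons at 0.253, activity-induced transcription factors at 0.19, endoplasmic reticulum stress and folding at -0.154 and excitatory cortical layers at 0.101.

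The lists with the widest medians were those of neighbouring brain regions. Markers of the olfactory bulb and of neuronal precursors had 0 of 14 estimates above 0 and a median of -0.613, and 0 passed. Eomes, a transcription factor of the bulb's projection neurons and of neuronal progenitors, had 294.1, 218.6, 41.82, 140.7, 349.1 and 18.14 in MIA PLX replicates 1 to 6, against 179.8, 335.9, 84.88, 303, 563.1 and 388.7 in saline PLX replicates 1 to 6. The spread within each group was wide and the groups overlapped, so the log2 fold change had a standard error of 0.97 around an estimate of -1.18. MIA PLX replicates 3 and 6, lowest in Hspa5, were also lowest in Eomes and in the share of the olfactory list, at 0.0546% and 0.0536%. That share was 0.0738% to 0.0906% in the other MIA PLX libraries and 0.0614% to 0.118% in the saline PLX libraries, highest in replicate 5. The median of the list was -0.383 without MIA PLX replicate 6.

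Striatal projection neuron markers had 21 of 22 estimates above 0 and a median of 0.253. Drd1, a dopamine receptor gene, had 513.3, 563.1, 999.4, 1708, 527.7 and 1138 in MIA PLX replicates 1 to 6, against 1014, 902.1, 1029, 536.1, 184.2 and 924.5 in saline PLX replicates 1 to 6. MIA PLX replicates 4 and 6 lay above every saline PLX library, and saline PLX replicate 5 was the lowest of the 12. The median of the list was 0.037 without MIA PLX replicate 4 and -0.0558 without saline PLX replicate 5, which turned its direction. The summed share was 0.0899% to 0.235% in MIA PLX libraries and 0.0648% to 0.159% in saline PLX libraries. The part of neighbouring tissue in any result above was not tested.

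**Figure D5:**
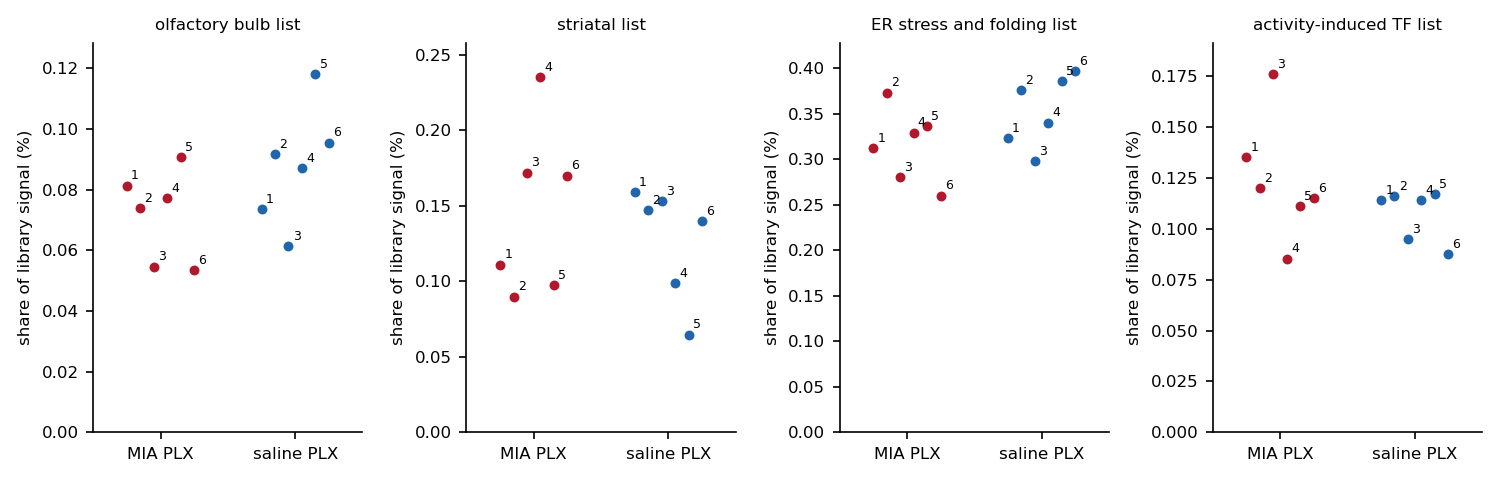
Share of each library's signal (y axis, percent) taken by 4 gene lists in the 6 MIA PLX (red) and 6 saline PLX (blue) libraries, numbered by replicate. The groups overlap in all 4 panels, and saline PLX replicate 5 has the highest olfactory (0.118%) and the lowest striatal (0.0648%) share.

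Glial, vascular and border lists had medians from -0.0567 to 0.0862, beside 0.00642 over all genes tested, with 0 called in each. Astrocyte markers had 7 of 22 estimates above 0 (median -0.0567), mature oligodendrocytes and myelin 14 of 23 (0.0407) and oligodendrocyte precursors 8 of 17 (-0.0109). The myelin gene Mbp was at -0.01 ± 0.11 (SE). Brain endothelium had 7 of 23 above 0 (-0.042), and its adhesion molecule gene Vcam1 had 584.2, 642.4 and 710.3 in MIA PLX libraries (lowest, median, highest), against 679, 719.9 and 800.3 in saline PLX libraries. For Vcam1 the difference in log2 was -0.19 ± 0.07 (SE, unadjusted p = 0.01128 by limma). Pericytes and smooth muscle had 9 of 14 (0.0862), meningeal fibroblasts 9 of 17 (0.0214) and choroid plexus 3 of 7 (-0.00208). The choroid plexus list holds 14 symbols, of which only those 7 passed the filter. Ttr, which defines choroid plexus, had 7.053 to 21.72 in MIA PLX libraries and 6.75 to 37.22 in saline PLX libraries of prefrontal cortex. In male hippocampus under PLX it had 256.1 to 29800 in MIA libraries and 424.2 to 60200 in saline libraries.

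The remaining lists also had 0 called. Their medians were 0.00978 for the circadian clock (10 of 20 above 0), -0.0383 for glucocorticoid-responsive genes (10 of 23), -0.0679 for nuclear-retained long noncoding RNAs (4 of 11), 0.00376 for perineuronal nets and matrix (9 of 15), 0.0337 for hippocampal neurons (8 of 13), 0.0475 for cell cycle and DNA replication (14 of 23) and -0.0595 for histones (6 of 17). In total 21 of 806 listed genes tested were at an unadjusted p under 0.05, or 2.61%, beside 2.76% of all genes.

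Whether the MIA comparison under PLX differs from other MIA comparisons was tested directly. Each difference below holds the 12 libraries of that comparison. Genes named above by their small p were chosen on those libraries, so their differences are not a second finding. Its difference from MIA against saline in males without inhibitor gave 0 called genes by limma and 746 at an unadjusted p under 0.05 (4.01%). Chaf1a, already chosen by its small p under PLX, had the smallest p, with a log2 fold change of 0.44 ± 0.11 under PLX and -0.25 ± 0.12 without it. The difference was 0.70 ± 0.16 (SE, 95% interval 0.37 to 1.03, adjusted p = 0.9995 by limma). Ogdhl, a mitochondrial dehydrogenase gene of brain, differed by 0.32 ± 0.09, with 0.12 under PLX and -0.20 without it. For Nhej1 the difference was -0.73 ± 0.20, with -0.49 under PLX and 0.24 without it. Neither passed.

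The difference from females under PLX gave 0 called genes by limma and 566 at an unadjusted p under 0.05 (3.04%). Without saline PLX replicate 5, 359 genes were at an unadjusted p under 0.05. CK137956 differed by 0.73 ± 0.18, with 0.49 in males and -0.24 in females. Tent5c, a poly(A) polymerase gene, differed by -0.60 ± 0.14, with -0.27 in males and 0.34 in females. Neither passed.

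The difference from male hippocampus under PLX gave 0 called genes by limma and 282 at an unadjusted p under 0.05 (1.51%). That fit takes the tissues as independent. With group and number as a random block (consensus correlation 0.405) the count was 850, with 0 called, so the low share depends on leaving the block out. Chaf1a differed by 0.51 ± 0.16, with 0.44 in prefrontal cortex and -0.06 in hippocampus. Lgals4, which encodes a galectin, differed by -0.84 ± 0.25, and Trim5, whose primate counterpart is an antiviral factor, by 0.98 ± 0.31. These standard errors take the tissues as independent. With the block they were 0.13 for Chaf1a, 0.19 for Lgals4 and 0.25 for Trim5, and no gene of the 3 passed. Lcn2 differed by 0.43 ± 1.23 (SE, 95% interval -2.02 to 2.87) with the tissues taken as independent. With group and number as a random block, chosen for this gene after seeing the data, the difference was 0.43 ± 0.85 (SE, 95% interval -1.27 to 2.12). In the counts by edgeR and DESeq2 for each of the 3 differences, 0 genes were called too.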

How the data were processed

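RNA of prefrontal cortex was extracted with the miRNeasy Micro kit and made into libraries with a stranded mRNA ligation kit, per the labels' protocols. The submitters' processing notes name Trimmomatic, STAR 2.6.1d and the mouse build GRCm39. The counting tool and its strand setting were not given in the sources used here. What was deposited is a signal: in all 96 libraries, dividing by 1 recovered factor per library gave whole reads for 100% of values (tolerance 0.01), so the deposited values are read counts scaled by a factor.

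Values were analysed as log2(signal + 1) with limma 3.58.1 in R 4.3.3, on all 48 prefrontal libraries in 8 groups, with a trend on mean level and two-sided tests. The difference between tissues used all 96 libraries in 16 groups. Benjamini-Hochberg adjustment ran over 18624 genes, and genes were called at an adjusted p under 0.05. The labels name libraries as separate samples, so p-values measure the spread between them. Replicate numbers gave correlations of deviations from -0.0721 to 0.0199 and were not used to pair samples.

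Alternatives were pseudocounts of 0.5 and 8, no filter or a minimum of 50, TMM scaling, array weights, a term for libraries rich in ribosomal protein and oxidative phosphorylation transcripts, a replicate block, a fit of the compared groups alone, each library left out in turn, edgeR 4.0.16 and DESeq2 1.42.0 on the recovered whole reads. The term in contrasts of PLX with control, and the block by group and number for single genes, were added after seeing the data. Scripts were tested on simulated data.

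The comparison and the 39 gene lists were chosen with earlier results of these data known. Named genes are the 12 smallest p in each direction without predicted genes, 8 microglial and inhibitor genes, tissue markers, the smallest p and the most abundant member of a list, and the 3 smallest p of each difference. Ly9, Fos, Fosb, Npas4, Arc, Hspa5, the hippocampal values of Lcn2 and Hspa5, and the female values of low-signal immune genes were chosen after values were seen. Of 864 listed symbols, 831 were matched in the table and 806 passed the filter and were tested. Some genes that this rule names are not reported here.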

Additional observations from a re-analysis of the deposited data

Results flagged for a closer look

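Within each group of 6 libraries, 100 groups of values were searched for a library far from the other 5, and 5 had one; chance gives about 1 in 20. Pdss2 had a signal of 311.5 in MIA PLX replicate 3, against 273.4 to 287.2 in the other MIA PLX libraries. Lcn2 was 17.77 in the same library, against 2.001 to 4.164 in the others of its group. P2ry12 was 730.9 in saline PLX replicate 5, against 842.1 to 895.2 in the other saline PLX libraries. Ly9, a lymphocyte surface receptor gene chosen after its values were seen, was 31.41 in saline PLX replicate 4, against 13.67 to 19.73 in the others. Ribosomal protein and oxidative phosphorylation genes took 0.741% of the signal in saline PLX replicate 5, against 0.503% to 0.583% in the others.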

How the results depend on the processing

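Counts of called genes stayed at 0 under every alternative run, with 1 exception. With array weights the predicted gene Gm49708 was called for the difference from females (1 gene, log2 difference 1.32, adjusted p = 0.028 by limma). Counts at an unadjusted p under 0.05 moved more. For MIA under PLX the count was 1291 with array weights, 1134 with a term for outlying libraries, 870 in a fit of the 12 libraries alone, and 331 to 745 with 1 library left out. For the difference from males without inhibitor it was 1518 with array weights, 1365 with that term and 547 to 1025 with 1 library left out. For the difference from females it was 343 with the stricter filter, 891 with array weights, 1300 in a fit of the groups compared and 359 to 806 with 1 library left out. For the difference from hippocampus it was 432 with no filter, 136 with the stricter filter, 874 with array weights, 547 with the term, 430 in a fit of the groups compared, 850 with the animal label as a random block (consensus correlation 0.405) and 202 to 355 with 1 library left out. The cause was not tested, apart from the filters, which change how many genes are tested. The replicate numbers did not pair the samples (0 of 6 correlations over 0.1). The replicate block left 0 genes called and 496 at an unadjusted p under 0.05, and it changed no other call.

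Of the 32 genes followed through the alternatives, 30 kept their direction and their side of the threshold. Cx3cr1 turned to -0.00824 with array weights and ran from -0.00649 to 0.0725 with 1 library left out, and P2ry12 ran from -0.104 to 0.00571. Of the 39 list medians, 39 moved by less than the spread between libraries. Leaving out 1 library can hardly move a median by that much, so this does not show that the medians are stable. The spread was 0.752 for striatal projection neurons and 0.61 for the olfactory list, in log2. Some medians changed sign, among them striatal projection neurons, whose median of 0.253 ran from -0.0558 to 0.401. With the added term in the PLX contrasts, Fcrls lost its call in both arms (adjusted p = 0.132 in MIA males and 0.081 in saline males by limma), and Chaf1a in saline males and Hcar2 in both arms kept theirs. The low depth of genes under a signal of 20 limits what can be seen there.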
